A study of Mus musculus with 8 samples.

Results

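The cytochrome P450 genes of the Cyp1a, Cyp1b, Cyp2a, Cyp2b, Cyp2d, Cyp2f, Cyp2g, Cyp2j, Cyp2r, Cyp2s, Cyp2u and Cyp3a subfamilies were measured in mouse livers with and without Cebpa, all taken after ethanol feeding. Members were chosen by gene symbol alone, as a subfamily name followed by a number and at most 1 letter. That gave 42 genes of the 55450 gene rows in the tables, in 12 subfamilies. The Cyp2c genes and Cyp2e1 were left out, and 20 pseudogene entries of the same subfamilies fell outside the symbol rule.

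P450 enzymes are heme proteins of the endoplasmic reticulum that insert an oxygen atom into drugs, toxins, steroids and fatty acids, using electrons passed on by the reductase Por and by cytochrome b5. Their genes lie in clusters of close copies, and many are switched on by the receptors AHR, CAR and PXR in response to foreign compounds. In the mouse liver several of them are also expressed at different levels in males and females, under the control of growth hormone. C/EBPα, the protein encoded by Cebpa, is a transcription factor enriched in hepatocytes.

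The 8 livers fell into 2 groups of 4. Control livers came from Cebpa fl/fl mice without Cre, and knockout livers from CebpaΔHep mice, which carried Cre and were deleted for Cebpa in hepatocytes. Mice of both groups were 10 weeks old and matched for body weight. They drank ethanol at 5% (vol/vol) in their liquid feed for 4 weeks after 5 days on the same kind of feed without it. Controls and knockouts thus both carried the floxed allele and both received ethanol, and livers without ethanol were not analysed here. Which promoter drove Cre, and the sex of the mice, were not stated in the labels. Polyadenylated RNA of whole liver was sequenced, so fewer cells of a type and less RNA per cell cannot be told apart.

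Depth was 21048350 to 28148744 expected counts per liver, and levels are given as TPM, a transcript level corrected for gene length and library size. Cebpa stood at 149 ± 11.8 TPM (SD, n = 4) in controls and 3.97 ± 1.03 TPM (SD, n = 4) in knockouts, and all 8 livers held transcripts of the Y-linked gene Ddx3y at 16.6 to 25.2 TPM. The 5 hepatocyte markers (Alb, Apoa1, Apob, Ttr and Hnf4a) summed to 57977.9 to 82610.3 TPM in controls and 80074.9 to 85407.5 TPM in knockouts, with none called. Alb made up most of these sums. Log2 fold changes were positive for 2 markers (Alb 0.19 and Ttr 0.34) and negative for 3 (Apoa1 -0.26, Apob -0.26 and Hnf4a -0.37). Cholangiocyte markers summed to 24.5 to 64.5 TPM in controls and 119 to 415 TPM in knockouts, and 3 of the 5 tested were called higher. No macrophage, stellate or endothelial marker was called, but all that were tested had positive log2 fold changes. These were 6 macrophage, 6 stellate and 5 endothelial markers, with medians of 0.626, 0.494 and 0.192. Of them 3, 3 and 1 had an unadjusted p below 0.05 in edgeR, against 18.5% of all tested genes. Macrophage markers summed to 78.8 to 159 TPM in controls and 141 to 236 in knockouts, stellate markers to 61.0 to 116 and 101 to 204, and endothelial markers to 50.9 to 66.3 and 62.5 to 87.1. The highest stellate sum was that of knockout 2. There Col1a1 and Col3a1 stood at 12.9 and 58.7 TPM, against 1.30 to 2.02 and 7.23 to 11.6 TPM in the other knockouts. Lymphocyte and neutrophil markers summed to 0.86 to 3.47 and 1.43 to 5.65 TPM, and none was tested. None of these markers was at 0 in every liver. Root mean square deviation from the group mean was taken on the log2 scale. Over all tested genes it was 0.398 in control 2 and 0.345 in knockout 4, against 0.286 to 0.327 in the other livers. Knockout 4 thus lay close to control 4, at 0.327, on that measure. Over the P450 genes control 2 and knockout 4 stood further apart, at 1.26 and 1.29 against 0.454 to 0.888 in the other livers. Control 2 and knockout 4 were singled out with earlier results known, and their distance includes the P450 genes themselves, so fits without them are descriptive. Values without them are given for Cyp2u1 and the variable Cyp2a and Cyp2b genes.

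The promoters of 2 gene pairs are shown because the members of each pair are close copies whose transcript levels were far apart in some livers. Cyp2a5 exceeded Cyp2a4 in every liver, and Cyp2b9 exceeded Cyp2b13 widely in controls 1, 3 and 4 but little in the knockouts. Cyp2a4 is a steroid hydroxylase known for higher expression in females, and Cyp2a5 is the coumarin hydroxylase of mouse liver. Cyp2b9 and Cyp2b13 are steroid hydroxylases known for higher expression in females, and Cyp2b10 is the classical target of CAR and is shown beside them. Each window runs 5′ to 3′ from 250 bases before to 50 bases after the start in RefSeq on GRCm38.p6 (mm10), and capitals mark a match to a C/EBP motif, spelled TTGC, any 2 bases, AA, on either strand. The windows are chr7:26306942-26307241 on the plus strand for Cyp2a4, chr7:26835089-26835388 on the plus strand for Cyp2a5, chr7:26173159-26173458 on the plus strand for Cyp2b9, chr7:26061245-26061544 on the plus strand for Cyp2b13 and chr7:25897408-25897707 on the plus strand for Cyp2b10.
Cyp2a4: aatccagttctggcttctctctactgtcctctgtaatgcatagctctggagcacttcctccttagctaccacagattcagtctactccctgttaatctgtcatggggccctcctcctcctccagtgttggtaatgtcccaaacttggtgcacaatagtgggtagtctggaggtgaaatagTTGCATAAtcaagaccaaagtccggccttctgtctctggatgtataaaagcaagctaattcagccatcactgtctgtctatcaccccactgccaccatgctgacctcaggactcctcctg
Cyp2a5: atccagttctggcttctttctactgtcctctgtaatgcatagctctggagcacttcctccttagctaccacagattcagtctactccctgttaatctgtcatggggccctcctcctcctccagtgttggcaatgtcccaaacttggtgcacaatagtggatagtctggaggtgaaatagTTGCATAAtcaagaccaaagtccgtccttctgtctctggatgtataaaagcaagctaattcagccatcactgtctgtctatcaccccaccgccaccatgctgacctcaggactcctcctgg
Cyp2b9: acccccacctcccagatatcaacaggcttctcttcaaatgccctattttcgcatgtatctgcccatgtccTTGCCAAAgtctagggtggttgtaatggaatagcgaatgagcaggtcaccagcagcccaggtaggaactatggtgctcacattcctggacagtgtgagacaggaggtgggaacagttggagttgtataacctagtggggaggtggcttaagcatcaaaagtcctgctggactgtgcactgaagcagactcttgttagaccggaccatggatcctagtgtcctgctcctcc
Cyp2b13: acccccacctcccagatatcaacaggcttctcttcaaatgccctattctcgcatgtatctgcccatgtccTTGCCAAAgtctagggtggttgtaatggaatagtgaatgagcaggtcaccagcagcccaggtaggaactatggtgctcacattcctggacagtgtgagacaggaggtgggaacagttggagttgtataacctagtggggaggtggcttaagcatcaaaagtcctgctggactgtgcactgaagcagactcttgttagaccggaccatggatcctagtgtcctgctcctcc
Cyp2b10: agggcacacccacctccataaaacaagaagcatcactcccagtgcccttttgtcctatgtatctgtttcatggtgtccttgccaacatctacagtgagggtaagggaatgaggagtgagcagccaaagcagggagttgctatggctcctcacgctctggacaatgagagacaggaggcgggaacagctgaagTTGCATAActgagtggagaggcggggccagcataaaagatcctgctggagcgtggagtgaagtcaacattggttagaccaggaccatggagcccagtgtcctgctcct

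The Cyp2a4 and Cyp2a5 windows were 97.7% identical, with 5 mismatched bases and 2 gapped positions. Counting from 1 at the 5′ end of the Cyp2a4 window, the substitutions were C19T, T131C, G161A, G205T and T270C, with the base of Cyp2a4 first. The Cyp2b9 and Cyp2b13 windows were 99.3% identical and differed only at T48C and C104T, with the base of Cyp2b9 first and positions counted from 1 at its 5′ end. Cyp2b9 and Cyp2b10 were 72.9% identical. The C/EBP motif began 70 and 71 bases before the start in Cyp2a4 and Cyp2a5, 180 bases before it in both Cyp2b9 and Cyp2b13, and 58 bases before it in Cyp2b10.

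Promoter windows were found for 36 of the 42 members. Cyp2d12, Cyp2d22, Cyp2d34, Cyp2g1, Cyp2j7 and Cyp2u1 had none. The C/EBP motif was present in 10 of the 36 (27.8%): all 5 Cyp2b genes, Cyp2a4, Cyp2a5, Cyp2j8, Cyp2j9 and Cyp3a25. Counted over windows it was in 28.9% of the 38 member windows. It was in 10.8% of 32851 comparison windows, which were those of full length and did not cover every chromosome. Several member windows with the motif are close copies, such as Cyp2b9 with Cyp2b13 and Cyp2a4 with Cyp2a5. Cyp3a25 was counted with overlapping windows, starting at chr5:146009568 and chr5:146009569. The member share therefore rests on fewer separate sequences than windows, and it was not tested. The core of the xenobiotic response element that AHR binds, GCGTG, was in 21.1% of the member windows and 32.4% of the comparison windows. A STAT motif, TTC, any 3 bases, GAA, was in 5.26% and 8.30%. A match to such letters is a description of the window and not a binding site.

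The xenobiotic P450 genes were abundant in every liver, with and without Cebpa. Summed over the 42 genes, control livers 1 to 4 held 7656.0, 7637.1, 6458.6 and 7185.9 TPM and knockout livers 1 to 4 held 9611.4, 7953.1, 11005.0 and 7809.9 TPM. All 4 knockout sums lay above all 4 control sums, by 1.26 times on the means (9094.9 ± 1513.3 against 7234.4 ± 561 TPM, SD, n = 4). The ratio was 1.19 when CPM, counts corrected for library size and not for length, were summed instead, and on that scale the groups overlapped, at 8453.1 to 10731.4 CPM in controls and 9575.3 to 15053.7 CPM in knockouts. No test was run on the sum. TPM ran slightly higher in knockouts than the scaled counts used for fold changes: on the log2(TPM + 1) scale the median difference of all tested genes was 0.0913.

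Cyp2d genes made up the largest share of the summed TPM, 44.0% in controls and 39.9% in knockouts on average. They were followed by Cyp3a (17.9% and 21.1%), Cyp2a (17.5% and 17.0%) and Cyp2f (11.8% and 14.5%). Cyp2j held 4.93% in both groups and Cyp1a 2.86% and 2.39%. Cyp2b was a minor share, 0.781% in controls and 0.167% in knockouts. Cyp2d9, a steroid hydroxylase known for higher expression in males, was the most abundant member in 7 of the 8 livers. Cyp3a11, a PXR target and a main drug-metabolising enzyme of mouse liver, led in knockout 3, where it made up 26.2% of the sum.

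**Figure D1:**
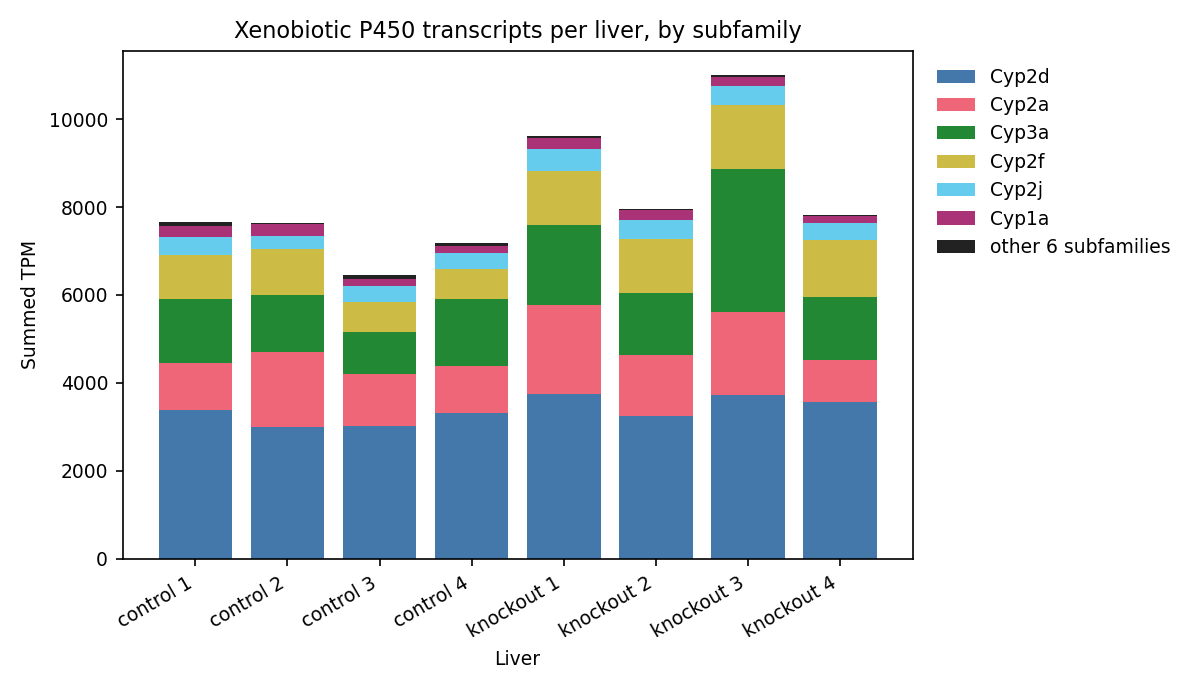
Summed TPM of the 42 xenobiotic P450 genes in each liver (vertical axis), stacked by subfamily, with the 6 minor subfamilies combined in black. The 4 control sums lie between 6458.6 and 7656.0 TPM and the 4 knockout sums between 7809.9 and 11005.0 TPM, with the Cyp3a segment of knockout 3 the largest of its kind.

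Of the 42 members, 27 had enough counts to be tested and 15 did not. Untested members were low in every liver, with mean levels up to 0.838 TPM (Cyp2g1, a P450 known from the olfactory mucosa). Cyp2g1 was listed at 0.25, 2.38, 0.88 and 0.82 TPM in control livers and 0.55, 0.42, 1.35 and 0.05 TPM in knockout livers, so the groups overlapped. Cyp2s1, an enzyme expressed mostly outside the liver, was at 0.04, 0.12, 0.13 and 0.10 TPM in controls and 0.44, 0.09, 0.13 and 0.34 TPM in knockouts, on 18 and 28 counts per group. Cyp2d34, Cyp2j8, Cyp2j11, Cyp3a16, Cyp3a41a, Cyp3a44 and Cyp3a57 did not exceed 0.32 TPM in any liver. Cyp2b19, Cyp2b23, Cyp2j7, Cyp2j12, Cyp2j13 and Cyp3a41b were listed at 0 in all 8 livers, a result that allows up to 3 counts per liver, from counting error only. Cyp3a41b and Cyp3a41a share 93.5% and 98.6% of their 50-base stretches with other genes, mostly with each other, so the 0 of Cyp3a41b also depends on how reads were assigned between them.

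**Figure D2:**
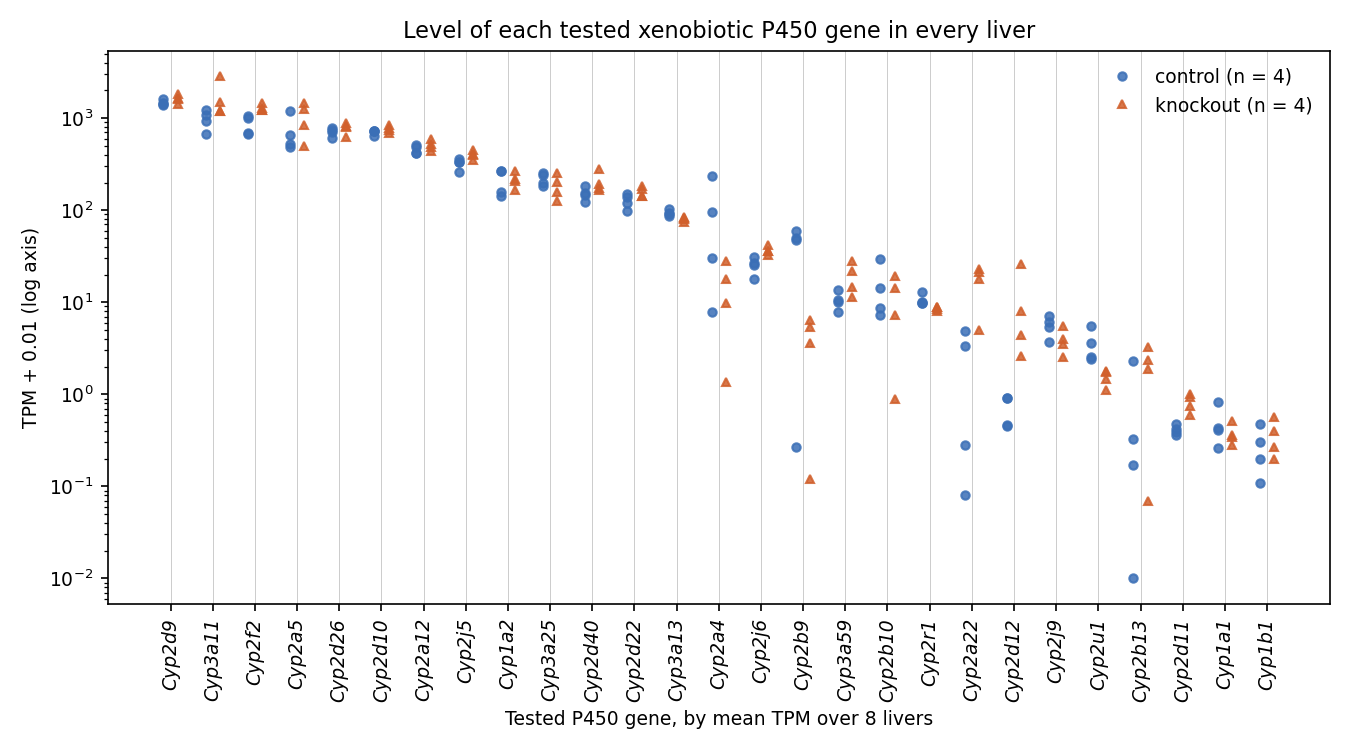
TPM of each of the 27 tested members in every liver (log axis, with 0.01 added so that a 0 can be drawn), ordered by mean TPM over the 8 livers. Blue circles are controls and orange triangles knockouts. The 12 most abundant genes, from Cyp2d9 to Cyp2d22, show closer points in both groups, while Cyp2a4, Cyp2b9, Cyp2b13, Cyp2a22 and Cyp2d12 spread widely.

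Knockout was compared with control by edgeR's quasi-likelihood test on the rounded expected counts, with Benjamini-Hochberg adjustment over all 13303 tested genes and a threshold of 0.05. The p-values measure the spread between these samples, since the labels do not say more about their origin than that each is a liver of its group. One of the 27 tested members was called, Cyp2u1, which fell. No member was called higher, while 0.849% of all tested genes were called higher and 1.21% lower, and the members' 1 call makes 3.70% of 27. Over all genes that is 113 higher and 161 lower, a split that became 161 and 115 when counts were scaled by library size alone. At an unadjusted p below 0.05 there were 11 members (40.7%), 6 higher and 5 lower, against 18.5% of all tested genes. DESeq2 called 1 member higher and 3 lower, against 409 higher and 449 lower of the 13303 tested genes.

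In scaled CPM, the values of the 2 groups did not overlap for 6 of the 27 tested members (22.2%), against 11.5% of all tested genes. Cyp2d11, Cyp2d12 and Cyp2f2 were higher and Cyp2r1, Cyp2u1 and Cyp3a13 lower in all 4 knockouts than in all 4 controls. The median log2 fold change of the 27 members was 0.06, with 17 positive and 10 negative, and that of all tested genes was 0.00, with 50.7% positive. These counts describe the 27 members that passed the filter on low counts, and no test was run on the list.

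**Figure D3:**
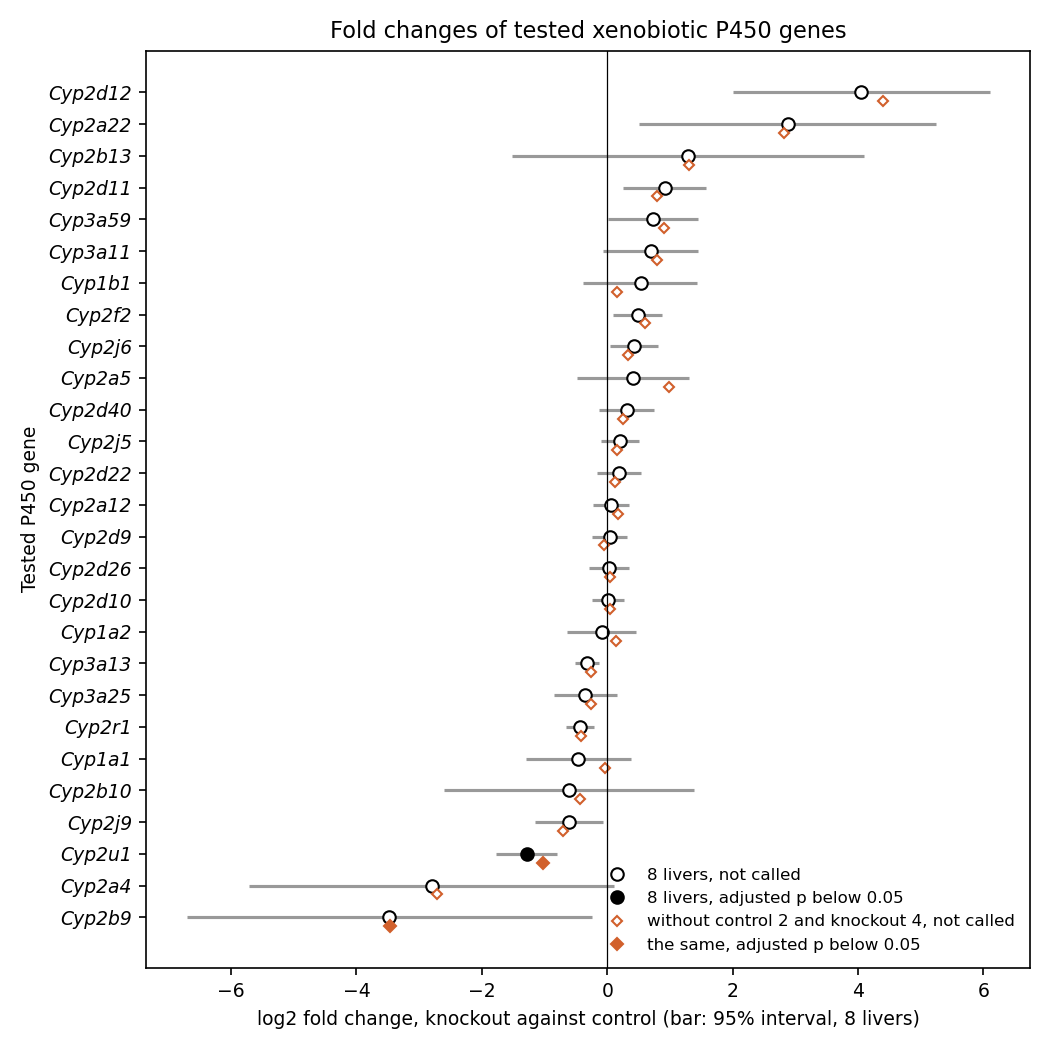
Log2 fold change of each tested member, knockout against control (horizontal axis), from edgeR's fit of the 8 livers (circles with 95% intervals) and from the fit without control 2 and knockout 4 (orange diamonds). Filled symbols have an adjusted p below 0.05. Cyp2u1 is filled in both fits and Cyp2b9 only without the 2 livers.

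Cyp2u1, a P450 that hydroxylates long-chain fatty acids, was a low-abundance transcript and fell with the loss of Cebpa. Control livers 1 to 4 held 3.63, 5.52, 2.53 and 2.38 TPM, and knockout livers 1 to 4 held 1.75, 1.10, 1.78 and 1.47 TPM. The groups did not overlap, and the highest value was that of control 2. The fitted log2 fold change was -1.28 (SE 0.22), a 2.43-fold decrease whose 95% interval ran from 0.294 to 0.576 of the control level (adjusted p = 0.0177, edgeR quasi-likelihood), resting on 682 control and 310 knockout counts.

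Without control 2 and knockout 4 the decrease of Cyp2u1 was 2.03-fold (adjusted p = 0.0328, edgeR). Its call was lost without control 1, knockout 1 or knockout 2, at adjusted p of 0.0504, 0.0558 and 0.0615 in edgeR, with log2 fold changes of -1.24, -1.31 and -1.26. Cyp2u1 lies at chr3:131288441-131303227 on the minus strand (mm10, GENCODE M21) and 4930534D22Rik overlaps it on the other strand. The strand setting of the counting is not given in these sources, so reads of those genes may not be told apart. The sums of cholangiocyte markers, made up mostly of Spp1, were also apart between the groups, and their part in the result was not tested.

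Other members whose groups did not overlap in CPM missed the threshold. Cyp2r1, the vitamin D hydroxylase of the liver, stood at 9.77, 12.8, 10 and 9.81 TPM in controls and 8.47, 8.98, 8.10 and 8.86 TPM in knockouts. All 4 controls were above all 4 knockouts, and control 2 was the highest. Its log2 fold change was -0.43 (SE 0.10), or 1.35-fold lower, with an adjusted p of 0.0579 (edgeR). Cyp3a13, a Cyp3a enzyme of liver and intestine, is described because of its values. It stood at 92.9, 103, 91.0 and 87.4 TPM in controls and 82.2, 80.2, 85 and 75.4 TPM in knockouts, again without overlap. Its log2 fold change was -0.32 (SE 0.09), or 1.25-fold lower, with an adjusted p of 0.0980 (edgeR). DESeq2 called both genes lower, at adjusted p of 0.00983 for Cyp2r1 and 0.0124 for Cyp3a13.

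Cyp2f2, known for activating naphthalene in mouse lung, was the member with the third highest mean TPM. It was at 1006.3, 1061.0, 675 and 686 TPM in controls and 1221.0, 1227.2, 1455.0 and 1284.6 TPM in knockouts. Every knockout exceeded every control, and controls 3 and 4 lay well below controls 1 and 2. On the fit it was 0.48 (SE 0.17) on the log2 scale, 1.40-fold higher with a 95% interval of 1.07 to 1.83, and the adjusted p was 0.178 (edgeR).

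Cyp2d12 held the largest positive fold change of the tested members and is singled out for those values. It was at 0.90, 0.91, 0.44 and 0.45 TPM in controls and 7.97, 2.58, 25.9 and 4.36 TPM in knockouts. All knockouts lay above all controls, but they spread widely and knockout 3 was far above the others. Fitted, the log2 fold change was 4.05 (SE 0.88), 16.5-fold higher with a 95% interval of 3.99 to 68.5, and the adjusted p was 0.0672 (edgeR). Without knockout 3 the log2 fold change was 2.96 and the adjusted p 0.0282. DESeq2 called it higher, with an adjusted p of 3.95e-05. Cyp2d12 shares 7.6% of its 50-base stretches with other genes.

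**Figure D4:**
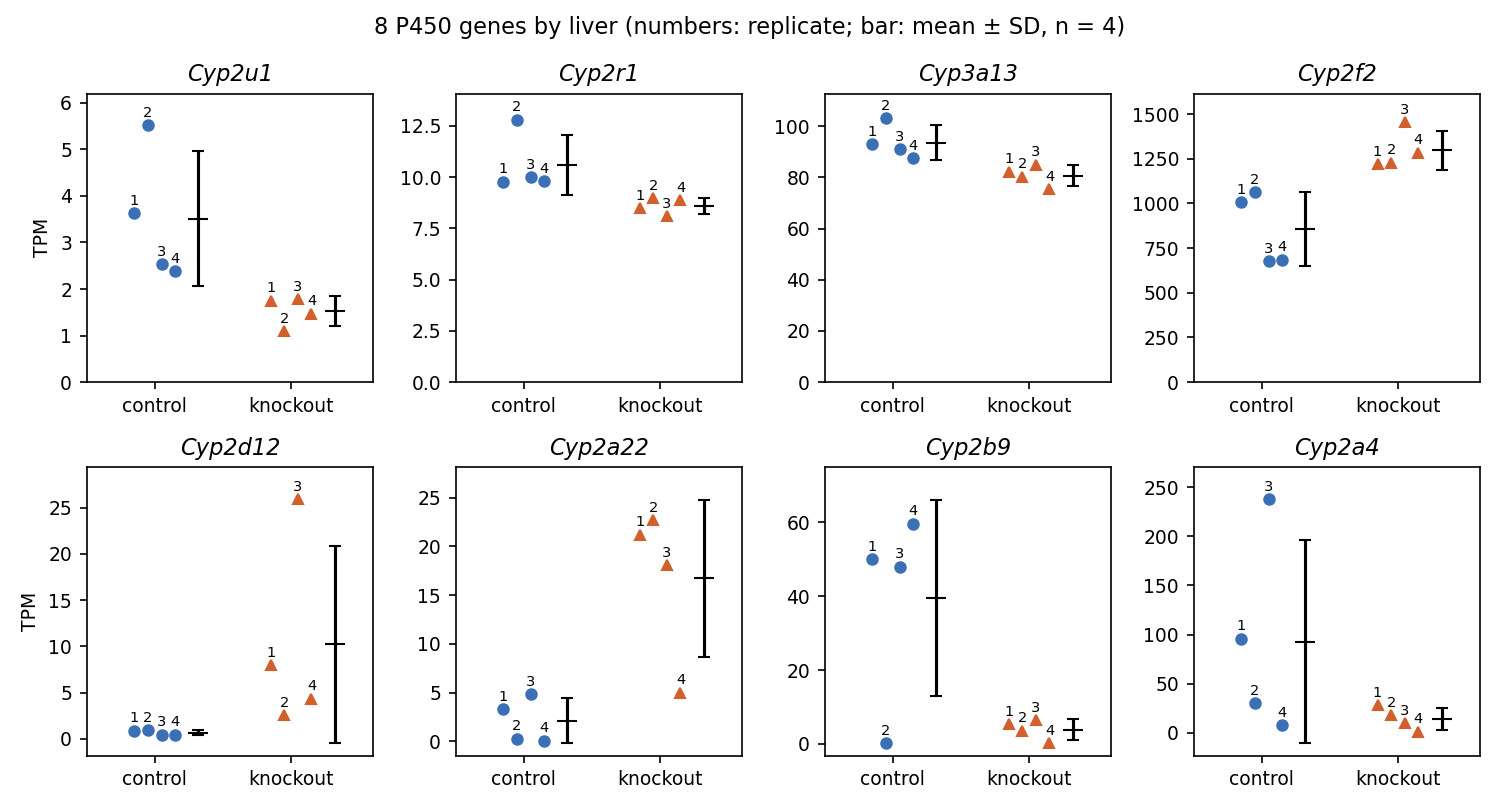
TPM in each liver for 8 P450 genes (blue circles, controls; orange triangles, knockouts; numbers give the replicate, and bars the mean ± SD, n = 4). The groups do not overlap in TPM in the upper panels (Cyp2u1, Cyp2r1, Cyp3a13 and Cyp2f2). In the lower panels they do not overlap for Cyp2d12 and, narrowly, for Cyp2a22. Cyp2b9 in control 2 (0.26 TPM) lies with the knockouts, and Cyp2a4 in control 4 (7.88 TPM) lies within the range of the knockouts.

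No change was called among the most abundant members. The 12 tested members with a mean of at least 100 TPM had log2 fold changes between -0.35 and 0.69, 10 of them positive and 2 negative, and the smallest adjusted p was 0.178 (edgeR). For 10 of the 12 the 95% interval lay within 2-fold either way. The exceptions were Cyp3a11, with an interval up to 2.73-fold higher, and Cyp2a5, with one up to 2.48-fold higher.

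Cyp2d9 was at 1619.0, 1427.1, 1404.7 and 1471.7 TPM in controls and 1606.2, 1437.5, 1674.1 and 1846.4 TPM in knockouts. These ranges overlapped, and the log2 fold change was 0.04 (SE 0.12, adjusted p = 0.901, edgeR). The 95% interval ran from 0.849 to 1.24 of the control level. Cyp2d9 shares 21.8% of its 50-base stretches with other genes. Cyp2d26, of the same cluster, was at 739, 610, 710 and 785 TPM in controls and 831, 795, 884 and 630 TPM in knockouts. It too overlapped between groups, with a log2 fold change of 0.03 (SE 0.14, adjusted p = 0.936). Cyp2d10 (0.01, with 35.8% of its stretches shared), Cyp2d22 (0.19), the gene often set beside human CYP2D6, and Cyp2d40 (0.31) had log2 fold changes that were not called either. Cyp2d11 was far less abundant, at 0.35 to 0.47 TPM in controls and 0.58 to 0.99 TPM in knockouts, without overlap and with a log2 fold change of 0.92 (SE 0.30, adjusted p = 0.142). It shares 37.2% of its 50-base stretches with other genes, most of them with the much more abundant Cyp2d10, so its level is uncertain.

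Within Cyp3a, the PXR target Cyp3a11 was at 1089.0, 922, 676 and 1217.9 TPM in controls and 1513.9, 1187.5, 2882.0 and 1186.8 TPM in knockouts. Knockout 3 was far above all other livers, and control 4 lay above knockouts 2 and 4. The log2 fold change was 0.69 (SE 0.33, adjusted p = 0.309, edgeR). Cyp3a25, at 256, 241, 183 and 200 TPM in controls and 203, 127, 254 and 159 TPM in knockouts, overlapped between groups and had a log2 fold change of -0.35 (SE 0.22, adjusted p = 0.439). It shares 26.8% of its 50-base stretches with other genes. Cyp3a59 ranged from 7.88 to 13.7 TPM in controls and from 11.4 to 27.8 TPM in knockouts (log2 fold change 0.73, adjusted p = 0.260), and shares 30% of its 50-base stretches with other genes.

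The AHR-inducible family Cyp1 gave no call. Cyp1a2, the caffeine-metabolising enzyme expressed in liver without an inducer, was at 267, 268, 156 and 143 TPM in controls and 267, 221, 208 and 164 TPM in knockouts. Both groups covered the same range, with a log2 fold change of -0.09 (SE 0.24, adjusted p = 0.872, edgeR) that turned positive on the TPM scale and without control 2 and knockout 4. Cyp1a1, which AHR ligands induce, was at 0.25, 0.81, 0.42 and 0.40 TPM in controls and 0.50, 0.35, 0.27 and 0.33 TPM in knockouts. Its groups overlapped, with a log2 fold change of -0.46 (SE 0.37, adjusted p = 0.545). Cyp1b1, an enzyme of estrogens and polycyclic hydrocarbons found mostly outside the liver, was at 0.10, 0.19, 0.29 and 0.47 TPM in controls and 0.26, 0.39, 0.19 and 0.56 TPM in knockouts. It overlapped as well, at a log2 fold change of 0.53 (SE 0.41, adjusted p = 0.520).

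Among the fatty acid epoxygenases of Cyp2j, Cyp2j5 was at 362, 262, 337 and 332 TPM in controls and 451, 406, 395 and 352 TPM in knockouts. Knockout 4 lay below control 1, and the log2 fold change was 0.20 (SE 0.14, adjusted p = 0.473, edgeR). Cyp2j6 was at 31.3, 18.0, 26.6 and 25.1 TPM in controls and 42.3, 36.0, 36.0 and 32.9 TPM in knockouts. Those TPM values did not overlap, but the scaled CPM did, at 48.3 to 88.8 against 82.6 to 110. Its log2 fold change was 0.43 (SE 0.17, adjusted p = 0.216). Cyp2j9 ranged from 3.72 to 7.15 TPM in controls and from 2.52 to 5.52 TPM in knockouts (log2 fold change -0.61, adjusted p = 0.222).

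Cyp2a and Cyp2b held the members that differed most between livers of 1 group. The coefficient of variation over the 4 livers exceeded 50% in at least 1 group for 8 tested members, and 5 of these belong to Cyp2a or Cyp2b: Cyp2a4, Cyp2a22, Cyp2b9, Cyp2b10 and Cyp2b13. The others were Cyp1a1, Cyp1b1 and Cyp2d12. None of the 12 members with a mean of at least 100 TPM did so.

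Cyp2b9 was at 50.1, 0.26, 48.0 and 59.7 TPM in controls and 5.35, 3.62, 6.44 and 0.11 TPM in knockouts. Control 2 was near 0 while the other 3 controls lay close together, and knockout 4 was the lowest of all. Over the 8 livers the log2 fold change was -3.48 (SE 1.36), 11.2-fold lower with an interval of 0.00954 to 0.841 of the control level, and the adjusted p was 0.241 (edgeR). Without control 2 and knockout 4 it was -3.47 (SE 0.24), 11.1-fold lower, and passed the threshold, with an adjusted p of 0.00119. That p is conditional on leaving out the lowest value of Cyp2b9 in each group, which narrows its spread, and it is no independent test. In that fit 1.38% of all tested genes were called higher and 1.84% lower, and the members past the threshold were Cyp2b9 and Cyp2u1, both lower. Leaving out control 2 alone gave an adjusted p of 0.0926 for Cyp2b9, and knockout 4 alone 0.269.

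Cyp2b13, the close copy of Cyp2b9, had a fold change of the other sign that was not called. It was at 2.30, 0, 0.32 and 0.16 TPM in controls and 2.32, 1.89, 3.24 and 0.06 TPM in knockouts, with a log2 fold change of 1.29 (SE 1.21, adjusted p = 0.607, edgeR). Without control 1 alone it was 3.38 (adjusted p = 0.235), and without control 2 and knockout 4 it was 1.30. Cyp2b13 was low in control 2 and knockout 4, as Cyp2b9 was. The TPM of Cyp2b9 was 21.8, 150 and 373 times that of Cyp2b13 in controls 1, 3 and 4, and 2.31, 1.92, 1.99 and 1.83 times in the 4 knockouts. In control 2, where Cyp2b13 was listed at 0, no ratio was formed. The promoter windows of this pair, printed above, differ at 2 bases. In the annotated transcripts, 10.8% of the 50-base stretches of Cyp2b9 are also in Cyp2b13. Cyp2b13 shares 27.3% with other genes, most of all with Gm45225 (13.8%), so its level depends on how reads were assigned. Cyp2b13, and Cyp2a4 and Cyp2a22 below, are set out in this detail because of their values.

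Cyp2b10 was at 14.3, 7.24, 29.5 and 8.55 TPM in controls and 14.4, 7.25, 19.3 and 0.89 TPM in knockouts. The groups overlapped, with control 3 above all knockouts and knockout 4 below all controls. The log2 fold change was -0.61 (SE 0.84, adjusted p = 0.741, edgeR), and -0.44 without control 2 and knockout 4. It was -0.05 without control 3 and -1.13 without knockout 3. Summed over the subfamily, Cyp2b was at 55.1 ± 32.1 TPM in controls and 16.2 ± 12.1 TPM in knockouts (SD, n = 4), with control 2 at 7.50 TPM.

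Cyp2a4 was at 95.8, 30.2, 238 and 7.88 TPM in controls and 28.4, 17.8, 9.80 and 1.36 TPM in knockouts. Controls 1 and 3 were high, control 2 lay just above the highest knockout and control 4 within the knockouts. The log2 fold change was -2.80 (SE 1.22), 6.97-fold lower on the fit, with an adjusted p of 0.285 (edgeR). It was -1.79 without control 3, -3.40 without knockout 1 and -2.71 without control 2 and knockout 4, not called in any of these fits. Cyp2a5 was at 487, 1188.6, 528 and 662 TPM in controls and 1452.8, 844, 1272.0 and 503 TPM in knockouts, high in control 2 and low in knockout 4. Its log2 fold change was 0.42 (SE 0.39, adjusted p = 0.605), and 0.98 (SE 0.23, adjusted p = 0.0759) without those 2 livers. Cyp2a4 made up 16.4%, 2.48%, 31.0% and 1.18% of the summed TPM of the pair in the controls and 1.92%, 2.06%, 0.765% and 0.270% in the knockouts. Cyp2a4 shares 38.0% of its 50-base stretches with other genes, 36.1% with Cyp2a5, and Cyp2a5 shares 37.0%, so these levels rest on how reads were assigned.

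Cyp2a22 was at 3.33, 0.27, 4.82 and 0.07 TPM in controls and 21.2, 22.7, 18.1 and 5.00 TPM in knockouts. Knockouts 1 to 3 were far above all controls and knockout 4 lay just above control 3 in TPM and just below it in scaled CPM (6.31 against 6.61). The log2 fold change was 2.88 (SE 1.00), 7.35-fold higher, with an unadjusted p of 0.0240 and an adjusted p of 0.198 (edgeR). It was 3.63 without control 3 and 2.83 without control 2 and knockout 4, not called in either. Its neighbour Cyp2a12, which hydroxylates secondary bile acids in mice, was at 488, 509, 420 and 414 TPM in controls and 523, 490, 595 and 445 TPM in knockouts. These overlapped, with a log2 fold change of 0.06 (SE 0.13, adjusted p = 0.836). Of the 50-base stretches of Cyp2a22, 20.2% are shared with Cyp2a12.

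The members known for higher expression in female mice (Cyp2a4, Cyp2b9, Cyp2b10, Cyp2b13, Cyp2g1, Cyp3a16, Cyp3a41a, Cyp3a41b and Cyp3a44) numbered 9. Of these 4 were tested and none was called, against 0.849% of all tested genes called higher and 1.21% lower. The log2 fold changes were -3.48 (Cyp2b9), -2.80 (Cyp2a4), -0.61 (Cyp2b10) and 1.29 (Cyp2b13), with a median of -1.70 against 0.00 over all tested genes. Cyp2b9 passed the threshold only in the fit without control 2 and knockout 4. Their summed level ranged from 40.2 to 316 TPM in controls and from 2.66 to 51.4 TPM in knockouts, so the groups overlapped. Of the members known for higher expression in males, Cyp2u1 fell and Cyp2d9 was not called.

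The regulators and partners of these enzymes were followed in 6 lists of 57 genes, of which 52 were tested. None was called higher and 1 (1.92%) was called lower, against 0.849% and 1.21% of all tested genes. At an unadjusted p below 0.05 in edgeR there were 10 (19.2%), close to the 18.5% of all tested genes. By DESeq2, 4 were called higher and 4 lower, against 409 and 449 of the 13303 tested genes. The one edgeR call was Prlr, the prolactin receptor, in the list of growth hormone and sex bias regulators. It was at 28.4, 30.5, 45.1 and 24.0 TPM in controls and 17.0, 16.1, 7.69 and 10.1 TPM in knockouts, without overlap, and fell by 1.72 on the log2 scale (SE 0.32, adjusted p = 0.0404). The count of list genes called lower was 0 after leaving out any 1 control, knockout 2 or knockout 4. In that list 14 of 15 genes were tested, with a median log2 fold change of -0.13.

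No xenobiotic sensor was called among 8 tested of 9 listed, and their median log2 fold change was -0.03. PXR itself, Nr1i2, had the smallest p of them (log2 fold change -0.26, adjusted p = 0.323, edgeR), at 39.4 to 53.8 TPM in controls and 33.7 to 48.3 TPM in knockouts. CAR (Nr1i3) and Ahr had log2 fold changes of -0.05 and -0.02. Of the 5 electron transfer partners, Cyb5r3, the reductase of cytochrome b5, had the smallest p. It was at 246 to 311 TPM in controls and 373 to 489 TPM in knockouts, without overlap, with a log2 fold change of 0.48 (SE 0.13, adjusted p = 0.0921). Por was at 359 to 523 TPM in controls and 252 to 432 TPM in knockouts (log2 fold change -0.58, SE 0.18, adjusted p = 0.139), and the list's median was 0.16.

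Heme supplies the catalytic group of every P450, and none of the 12 genes of its synthesis and breakdown was called (median -0.07, smallest adjusted p 0.286 for Urod, edgeR). Of the AHR targets outside the P450 genes 3 of 4 were tested (median 0.13). Ugt1a6a, a glucuronosyltransferase, was lowest in p, at 83.9 to 93.3 TPM in controls and 58.4 to 81.1 TPM in knockouts (log2 fold change -0.40, adjusted p = 0.0638). Of the CAR and PXR targets outside the P450 genes 10 of 12 listed were tested (median 0.21), and none was called. The exporter Abcc4 had the smallest p, at 0.45 to 1.48 TPM in controls and 2.07 to 7.85 TPM in knockouts (log2 fold change 2.06, adjusted p = 0.0990).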

How the data were processed

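Gene tables of 8 mouse livers were used, 4 control and 4 knockout by genotype label. The authors deposited RSEM expected counts and TPM per gene, per the file headers. Per the submitters' processing notes, the tools, listed with no order, were RSEM 1.2.22, STAR 2.5.1, Trimmomatic 0.36, Picard 1.84 and DESeq2, and the build was mm10. The library kit was stranded, per the labels' protocols. How strand was set, and which annotation release was used, is not stated in these sources. All 55450 gene IDs matched GENCODE M21.

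Expected counts, as deposited, were rounded to whole numbers. Of 23236 genes with a count, 13303 passed filterByExpr of edgeR (minimum count 10, minimum total 15). They were scaled by TMM and tested with edgeR 4.0.16 (robust glmQLFit, glmQLFTest, two-sided) in R 4.3.3, with Benjamini-Hochberg adjustment over all tested genes at 0.05. Log2 fold changes and CPM come from these scaled counts and levels from TPM. One count was worth 0.0341 to 0.0485 CPM, which limits the low members. Overlap of groups was judged in scaled CPM. RSEM shares reads between copies, so the percentage of a gene's 50-base transcript stretches found in other genes is given for members described in detail. It was over 20% for 13 members and 0 for 6.

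Values in every liver are given for members called and for the 2 of highest mean TPM in each subfamily, other members being singled out after their values had been seen. From each pathway list every called gene, or that with the smallest p, is named. The members and lists were chosen with earlier results of these data known. Alternatives were RLE or library size scaling, other filters, DESeq2 1.42.0, limma 3.58.1 (voom, or trend on log2(TPM + 1)), non-robust estimation, glmTreat against 1.5-fold, a replicate block, and leaving out livers. The test was checked on simulated data. Promoters are from RefSeq (GRCm38.p6).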

Additional observations from a re-analysis of the deposited data

Results flagged for a closer look

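In 54 sets of 4 livers (27 tested members in each group) 1 value was looked for that lay far from the other 3, by Dixon's test at its 95% critical value, which chance passes in about 1 in 20 sets. Such a value was found in 3 sets, all of controls. Cyp2b13 was at 2.30 TPM in control 1 and at 0, 0.16 and 0.32 TPM in the other controls. Cyp2d10 was at 636 TPM in control 3 and at 721, 725 and 727 TPM in the others. Cyp2r1 was at 12.8 TPM in control 2 and at 9.77, 9.81 and 10 TPM in the others, and without control 2 it was still not called.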

How the results depend on the processing

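Of the members' log2 fold changes recomputed over the alternatives, 483 kept their direction and side of the threshold, 16 changed sign, 6 came to pass the threshold and 5 ceased to. The sign changes were of small values. Cyp1a2 was 0.0803 with limma-trend and 0.144 without control 2 and knockout 4, and Cyp2d9 was -0.0477 without those 2 livers. Over single livers left out, Cyp1a2 ranged from -0.24 to 0.07, Cyp2a12 from -0.0486 to 0.128, Cyp2d10 from -0.0563 to 0.0777, Cyp2d26 from -0.0618 to 0.123 and Cyp2d9 from -0.0186 to 0.116. Members called higher numbered 1 with DESeq2 and 1 without robust estimation, both Cyp2d12, and 0 to 1 with 1 liver left out. Members called lower numbered 3 with DESeq2, 2 without control 2 and knockout 4, 0 with limma-trend and 0 with glmTreat, and 0 to 1 with 1 liver left out. List genes called higher numbered 1 with library size alone, 4 with DESeq2 and 1 with limma-trend, and 0 with any 1 liver left out. List genes called lower numbered 0 with library size alone, without a filter, with the replicate block and with glmTreat, and 4 with DESeq2, and 0 to 1 with 1 liver left out. All genes called higher, 113, and lower, 161, became 409 and 449 with DESeq2, 185 and 246 without control 2 and knockout 4, and 23 and 24 with glmTreat, while limma-trend called 84 lower. With 1 liver left out they ranged from 46 to 167 and from 61 to 205, falling by over 1.5 times without control 1, 3 or 4 or knockout 1, 2 or 3. The cause of these changes was not tested. The replicate numbers were shared by both groups, and deviations of same-numbered livers correlated at 0.207, 0.00904, -0.0243 and -0.0672. Livers of different number were not correlated for comparison, so these values cannot show whether same-numbered livers were paired. The main fit did not use the numbers. With the replicate block 78 genes were called higher and 98 lower, and Cyp2u1 stayed the 1 member called (adjusted p = 0.0416, edgeR). On log2(TPM + 1) the median of all genes moved to 0.0913, so TPM run slightly higher in knockouts than the fitted values. Depth limits the 15 untested members.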
